A study of Homo sapiens with 2 samples.

Results

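The 50 genes described here encode the SR proteins, the heterogeneous nuclear ribonucleoproteins (hnRNPs) and close partners of both in pre-mRNA splicing, and they were examined for NeuroD1 binding in IMR-32 cells. They were chosen by symbol from 20037 protein-coding RefSeq genes on the chromosomes, as every gene whose symbol starts with SRSF or HNRNP together with PTBP1, PTBP2, PTBP3, SRRM1, SRRM2, SRRM3, SRRM4, TRA2A, TRA2B, U2AF1, U2AF2 and SF3B1. A gene was counted as having a peak where a NeuroD1 peak lay in it or within 3 kb of either end. IMR-32 is a neuroblastoma cell line that carries amplified MYCN, and the cells were labelled wild type, with no treatment named. The series holds 1 ChIP library, labelled with a NeuroD1 antibody, and 1 input library of chromatin sequenced with no antibody step, which was not analysed here. ChIP-seq sequences the DNA that comes down with an antibody against a chromatin protein, and stretches with more reads than their surroundings are called as peaks. The supplementary methods of the study name an H3K27Ac antibody for the ChIP, while its text and captions describe the list as NeuroD1 binding sites, as the label does. The list is used here as labelled. With 1 library and no replicate, no test between samples was possible. The intervals given here cover the counting error of the ChIP reads only, and the error of the background is left out of them. The exception is the interval of the median fold enrichment, which rests on the spread between peaks.

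SR proteins carry RNA recognition motifs and a tail rich in arginine and serine, and they mostly promote the use of nearby splice sites from exonic enhancers. hnRNPs coat nascent transcripts and often act in the opposite direction, so that the balance between both groups shapes which exons are kept. Neurons use this machinery heavily: PTBP1 represses neuronal exons in other cells, PTBP2 is its neuronal paralog, and SRRM4 promotes the inclusion of neuronal microexons. NeuroD1 is a proneural bHLH transcription factor that binds E-boxes, DNA hexamers of the form CANNTG.

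Of the 50 genes, 22 had a NeuroD1 peak (44.0%), against 21.4% of all protein-coding genes by the same rule. Longer genes offer more room for a peak, so the background was also weighted to the lengths of the 50 genes, which gave 18.7%, or 9.37 genes in 50. The 22 genes were 14 of 26 hnRNP genes, 5 of 12 SR protein genes, 2 of 3 PTBP genes and 1 of 4 SRRM genes. Neither TRA2A nor TRA2B had a peak, nor did U2AF1, U2AF2 or SF3B1. Together they held 29 peaks, with 1 peak at 17 genes, 2 peaks at 3 genes (HNRNPU, HNRNPA2B1 and SRSF2) and 3 peaks at 2 genes (SRRM4 and HNRNPA1). The genes with a peak were not the longer members. Their median length was 14.6 kb, against 17.4 kb for the 28 without a peak, whereas over all protein-coding genes those with a peak were longer (median 38.9 kb) than those without (21.2 kb). In the class from 10 to 20 kb, 9 of 14 members had a peak, against 18.6% of all protein-coding genes of that length. Under 10 kb it was 5 of 16 against 13.3%, from 20 to 50 kb 5 of 15 against 22.5%, and at 50 kb or more 3 of 5 against 29.3%.

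**Figure D1:**
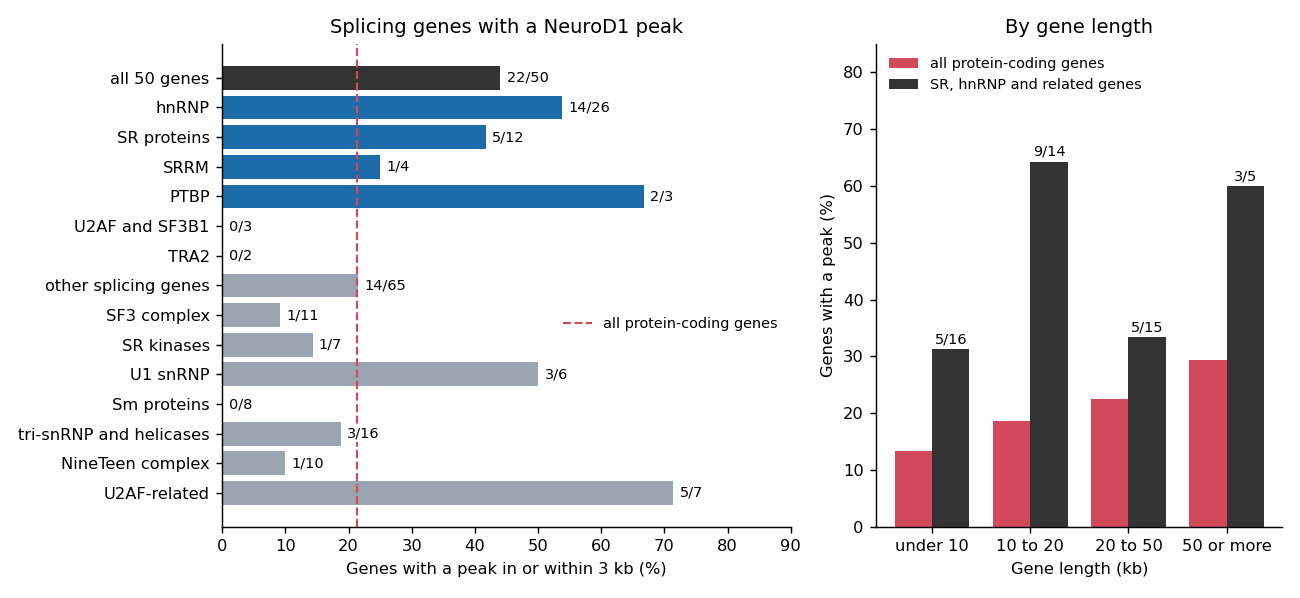
Percent of genes with a NeuroD1 peak in the gene or within 3 kb, by gene list (left; bars labelled with genes with a peak over genes in the list; dashed line, all protein-coding genes) and by gene length (right). The 50 genes stand at 44.0% and the other splicing genes at 21.5%, beside 21.4% of all protein-coding genes, and in each of the 4 length classes the bar of the 50 genes is the higher.

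The peaks lay mainly at gene starts. RefSeq start sites with a strand were at hand for 45 of the 50 genes, and 19 of these 45 (42.2%) had a peak summit within 1 kb of a start, against 15.4% of the 15843 protein-coding genes with such a site. Start sites were not used here for SRSF2, HNRNPA1, TRA2A, HNRNPCL3 and HNRNPA1L3. Of the 24 peaks at genes with a start site, 19 had the summit within 1 kb of it (79.2%), compared with 57.5% of 4602 pairs of a peak and a protein-coding gene. The summit was upstream of the start in 18 of these 19, beside 2150 of 2648 such pairs over all protein-coding genes. It was downstream only at SRSF11, by 8 bp. The start lay inside the peak in 11 of the 24 (45.8%), against 32% over all protein-coding genes. The median distance from summit to start was 144 bp, against 378 bp. These shares and distances were not matched on gene length. The members with a peak had a median length of 14.6 kb, against 38.9 kb for all protein-coding genes with a peak. The other 5 of the 24 peaks were the pair inside SRRM4, the downstream peak of HNRNPU, the outer peak of HNRNPA2B1 and the peak at SRSF1.

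Promoters of these genes were rich in CpG. Over the 45 genes the median was 30.0 CpG per promoter window of 300 bases, against 21.5 over all protein-coding genes. Weighted to the CpG counts of the 45 genes, the background share with a summit within 1 kb of the start was 20%. Within the 45 genes the CpG count was about the same with and without such a summit, at medians of 30.0 and 30.5. Expression was not measured in this series, and its part in these shares was not tested.

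The promoter windows below are the 5 with the highest fold enrichment among those that hold a summit, and they are shown because the summit falls in them and the E-box content can be read from the letters. Sequences are from RefSeq of GRCh38.p14, 5′ to 3′ on the strand of the gene, from 250 bases before to 50 after the start, with every CANNTG in capitals.
HNRNPC promoter, chr14:21269393-21269692, reverse strand: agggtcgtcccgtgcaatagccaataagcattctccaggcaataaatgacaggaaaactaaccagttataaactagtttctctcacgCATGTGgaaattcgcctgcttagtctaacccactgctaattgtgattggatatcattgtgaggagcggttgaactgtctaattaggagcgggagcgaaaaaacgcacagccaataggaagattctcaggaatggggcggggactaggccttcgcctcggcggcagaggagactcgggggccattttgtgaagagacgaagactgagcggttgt
SRRM4 promoter, chr12:118981291-118981590, forward strand: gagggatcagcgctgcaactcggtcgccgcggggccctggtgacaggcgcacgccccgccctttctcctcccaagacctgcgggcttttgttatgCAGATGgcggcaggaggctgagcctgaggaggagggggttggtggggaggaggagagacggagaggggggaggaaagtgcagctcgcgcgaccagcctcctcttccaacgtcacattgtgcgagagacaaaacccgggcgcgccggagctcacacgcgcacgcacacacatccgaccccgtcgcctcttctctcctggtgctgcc
HNRNPH3 promoter, chr10:68331814-68332113, forward strand: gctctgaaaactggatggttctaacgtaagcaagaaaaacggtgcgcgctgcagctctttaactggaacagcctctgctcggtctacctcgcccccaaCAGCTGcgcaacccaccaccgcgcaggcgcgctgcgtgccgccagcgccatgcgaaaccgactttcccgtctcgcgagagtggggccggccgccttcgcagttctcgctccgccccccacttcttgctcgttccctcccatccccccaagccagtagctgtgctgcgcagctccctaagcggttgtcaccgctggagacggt
SRSF11 promoter, chr1:70205446-70205745, forward strand: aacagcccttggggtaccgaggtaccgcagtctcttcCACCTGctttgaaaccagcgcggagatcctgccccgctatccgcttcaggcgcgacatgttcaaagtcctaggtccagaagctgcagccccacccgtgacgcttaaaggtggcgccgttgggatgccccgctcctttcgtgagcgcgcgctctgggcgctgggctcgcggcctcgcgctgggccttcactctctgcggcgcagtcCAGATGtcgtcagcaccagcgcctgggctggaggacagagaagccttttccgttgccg
HNRNPL promoter, chr19:38849937-38850236, reverse strand: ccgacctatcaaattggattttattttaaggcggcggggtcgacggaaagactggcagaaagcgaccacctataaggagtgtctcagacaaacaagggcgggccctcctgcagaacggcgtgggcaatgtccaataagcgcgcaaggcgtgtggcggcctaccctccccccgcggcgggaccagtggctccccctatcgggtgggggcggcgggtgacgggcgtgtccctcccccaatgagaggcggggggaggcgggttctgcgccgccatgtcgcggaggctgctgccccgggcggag
Counted from the first base of the window, the summit lay at base 141 in HNRNPC, 178 in SRRM4, 160 in HNRNPH3, 259 in SRSF11 and 204 in HNRNPL. SRRM4 and SRSF11 hold CAGATG, and HNRNPH3 holds CAGCTG, which are both hexamers that NeuroD1 is known to bind, while HNRNPL holds no CANNTG in its window. Measured from the third base of the hexamer, the E-box nearest to the summit was 14 bp away in SRSF11, 51 bp in HNRNPC, 59 bp in HNRNPH3 and 80 bp in SRRM4. In all, 13 promoter windows of these genes held a summit and 9 of them held a CANNTG (69.2%), against 57.0% of the 2041 protein-coding promoter windows with a summit and 65.1% of all 22199 windows. The windows of HNRNPAB, PTBP1, SRSF7 and HNRNPL held none. CAGATG or CAGCTG, read on both strands, was found in 3 of the 13 (23.1%), against 25.9% of windows with a summit and 27.6% of all windows. For 12 of the 13 summits, 50 bases on each side lay in the window, and 3 of these 12 stretches held a CANNTG (25%, against 26.0% for all such summits in protein-coding promoters). They were HNRNPA3 with CACGTG at 20 bp, SRSF3 with CATGTG at 27 bp and HNRNPK at 40 bp. None of the 12 stretches held CAGATG or CAGCTG, against 11.2% of all such stretches. The summit left out for lack of 50 bases was that of SRSF11, which has CAGATG 14 bp away, the nearest E-box of the 13 windows. The letters in a window describe the sequence only and do not mark a bound site. Over all 63 windows of the 45 genes, with or without a summit, 36 held a CANNTG (57.1%) and 11 held CAGATG or CAGCTG (17.5%).

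Fold enrichment at the 29 peaks ran from 4.25 to 12.3, with a median of 7.69. The median over all 6183 peaks was 6.79, and 19 of the 29 peaks were above it. The 95% interval of the median of the 29 peaks was 6.13 to 9.16, which contains 6.79. It rests on the spread between peaks of 1 library, some of them at the same gene. Peak coordinates are in hg38. Fold enrichment divides the ChIP pileup at the summit by the background there, after 1 is added to both. Above the upper quartile of all peaks (8.68) there were 9 peaks, and none reached the 95th percentile (13.8). Summits were covered by 10 to 46 ChIP reads, with a median of 19.0, over backgrounds from 1.04 to 4.0 (median 1.46, against 1.31 over all peaks). Widths ran from 146 to 927 bp. No peak of these genes lay in the region of high background around MYCN, where the median background within 0.5 Mb was 45.9.

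**Figure D2:**
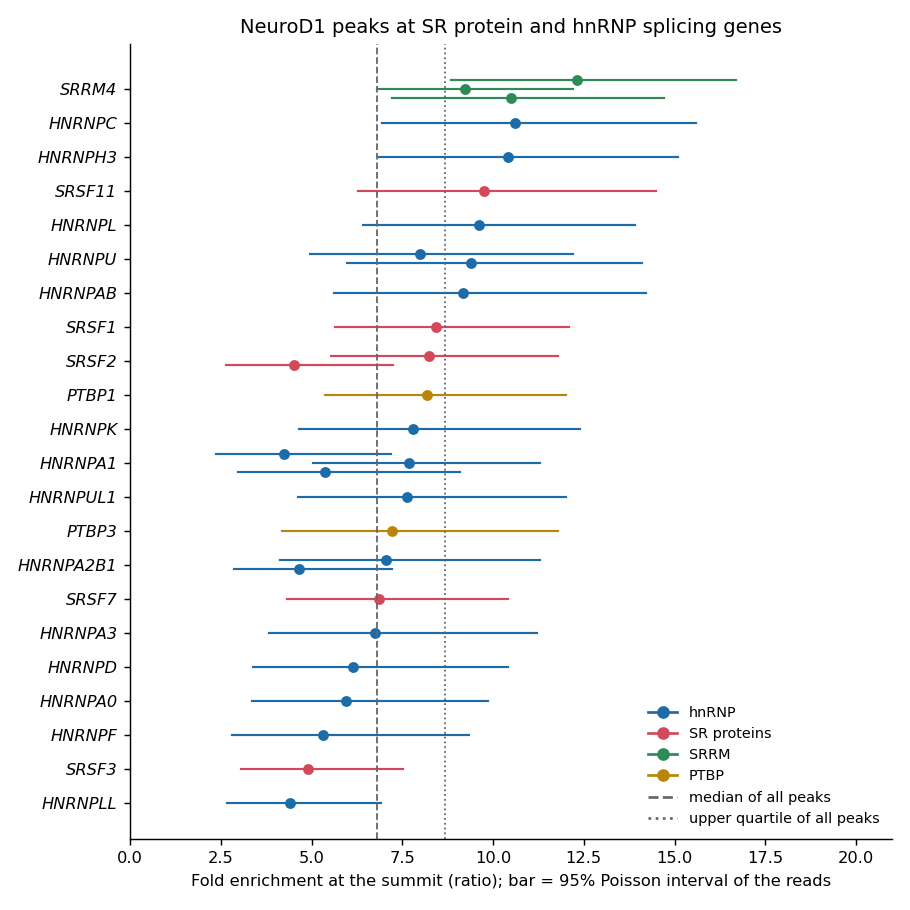
Fold enrichment of each NeuroD1 peak at the 22 genes with a peak (dots, coloured by family), with 95% intervals from exact Poisson limits of the reads at the summit with the background held fixed. The peaks run from 4.25 at HNRNPA1 to 12.3 at SRRM4, and most intervals cross the median of all peaks (dashed, 6.79) or the upper quartile (dotted, 8.68).

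SRRM4, the neuronal microexon regulator, carried the highest enrichment of the 50 genes. Its promoter peak (chr12:118981316-118981619) had its summit 73 bp upstream of the start and a fold enrichment of 10.5 (7.21 to 14.7), with 31 reads (95% exact Poisson interval 21.1 to 44.0) over a background of 2.0. A pair of peaks lay inside the gene. The peak (chr12:119006876-119007152), 25470 bp downstream of the start, had 46 reads over a background of 4.0 and a fold enrichment of 9.22 (6.80 to 12.2). The peak (chr12:119008751-119009245), 27351 bp downstream, had 39 reads over a background of 2.19 and a fold enrichment of 12.3 (8.83 to 16.7), which placed it at rank 470 among all 6183 peaks, or at rank 317 when ordered by −log10 q. The −log10 q values of the 3 peaks were 20.8, 26.9 and 29.1 in that order, the highest of the 29 peaks. The intervals of the 3 peaks overlapped, so their order is not settled by the reads. No other gene lay within 3 kb of any of them. SRRM4 spans chr12:118981541-119163051 and is 182 kb long, the longest of the 50 genes. The other SRRM genes had no peak: the nearest peak was 5.76 kb from SRRM2, a large scaffold of nuclear speckles, 7.51 kb from SRRM3, the paralog of SRRM4, and 71.8 kb from SRRM1.

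**Figure D3:**
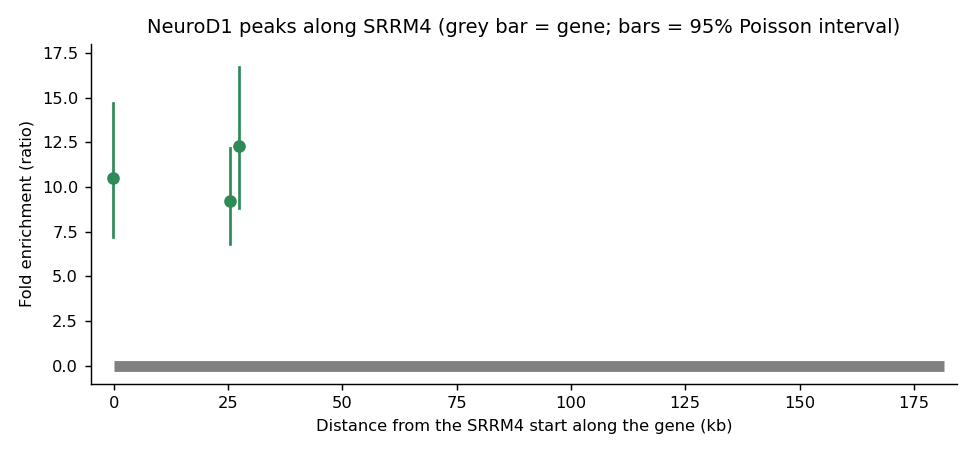
NeuroD1 peaks along SRRM4, by distance in kb from its start and by fold enrichment, with 95% Poisson intervals as bars and the gene drawn to scale in grey. A peak stands at the start and a pair stands about 25 to 27 kb inside the gene, with no peak over the rest of its length.

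Among the PTBP genes, which encode polypyrimidine tract binding proteins, PTBP1 and PTBP3 had a peak and the neuronal paralog PTBP2 had none. The PTBP1 peak (chr19:796979-797449) had its summit 146 bp upstream of the start, with a fold enrichment of 8.17 (5.36 to 12), a −log10 q of 13.1 and 24 reads. The PTBP3 peak (chr9:112333774-112333968) had a fold enrichment of 7.23 (4.18 to 11.8) and 14 reads, and its summit lay 846 bp upstream of a start inside the gene span. Around PTBP2 the nearest peak was 138 kb away. The intervals of PTBP1 and PTBP3 overlapped over most of their range.

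Of the 12 SR protein genes, SRSF1, SRSF2, SRSF3, SRSF7 and SRSF11 had a peak. SRSF11, a relative of the SR proteins with the same kind of tail, had a peak (chr1:70205571-70205795) with a fold enrichment of 9.75 (6.27 to 14.5) and 22 reads, and its summit lay 8 bp from the start of SRSF11 and 125 bp from that of LRRC40 on the opposite strand. SRSF7, which takes part in splicing and mRNA export, had a peak (chr2:38751185-38751570) with a fold enrichment of 6.87 (4.32 to 10.4) and 20 reads. At SRSF3, which has like roles, the peak (chr6:36594163-36594446) had a fold enrichment of 4.91 (3.05 to 7.52) with 19 reads over a background of 3.0. The number of reads at SRSF7 and SRSF3 was thus alike, and the background was 2.0 at SRSF7. Their intervals of fold enrichment overlapped, so the order of SRSF7 and SRSF3 is not settled. SRSF2, a component of nuclear speckles, had a peak of 927 bp (chr17:76737199-76738125), the widest of the 29, with a fold enrichment of 8.23 (5.53 to 11.8) and 27 reads. Its summit lay 106 bp from the start of the neighbouring MFSD11, and no start of SRSF2 was in use here for comparison. The smaller SRSF2 peak (chr17:76736485-76736698) had a fold enrichment of 4.51 (2.65 to 7.25) with 15 reads. The peak of SRSF1, the founding member of the family (chr17:57988270-57988606), stood apart from the others in position and lay 432 bp beyond the far end of the gene, 18784 bp from the start of SRSF1 and 208 bp from the start of VEZF1. Its fold enrichment was 8.42 (5.65 to 12.1) with 27 reads. SRSF4, SRSF5, SRSF6, SRSF8, SRSF9, SRSF10 and SRSF12 had no peak, and the nearest peak was 14.1 kb away at SRSF12, 26.2 kb at SRSF9 and 55.8 kb at SRSF5.

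Among the 14 hnRNP genes with a peak, HNRNPC, HNRNPH3, HNRNPL, HNRNPU and HNRNPAB were above the upper quartile of all peaks. HNRNPC, which binds uridine tracts and keeps U2AF2 from cryptic exons, had a peak (chr14:21269412-21269733), 110 bp upstream of the start, with a fold enrichment of 10.6 (6.95 to 15.6), a −log10 q of 17 and 24 reads. HNRNPH3, of the family that binds runs of guanine, had a peak (chr10:68331879-68332112), 91 bp upstream, with a fold enrichment of 10.4 (6.85 to 15.1), a −log10 q of 17.2 and 25 reads. HNRNPL, which binds CA repeats, had a peak of 668 bp (chr19:38849919-38850586) with a fold enrichment of 9.62 (6.41 to 13.9) and 26 reads. These 3 genes, SRSF11 and SRRM4 had the highest peaks, and their intervals overlapped. At HNRNPU, which also binds chromatin as scaffold attachment factor A, the peak (chr1:244864537-244864718) lay 70 bp upstream of the start with a fold enrichment of 7.98 (4.96 to 12.2) and 19 reads. The other HNRNPU peak (chr1:244863001-244863317) lay 1431 bp downstream, with a fold enrichment of 9.39 (5.98 to 14.1) and 21 reads. HNRNPAB had a peak (chr5:178204362-178204597) with a fold enrichment of 9.16 (5.63 to 14.2) and 18 reads.

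Of the A-type hnRNP genes, HNRNPA0, HNRNPA1, HNRNPA2B1 and HNRNPA3 had a peak, and the copies HNRNPA1L2 and HNRNPA1L3 had none. HNRNPA1 and HNRNPA2B1 are known as exon silencers. HNRNPA1 had 3 peaks at the end of the gene with the lower coordinates, of which the middle peak (chr12:54280590-54280776) overlapped that end and had a fold enrichment of 7.69 (5.04 to 11.3) with 24 reads. The flanking HNRNPA1 peaks (chr12:54279589-54279834 and chr12:54280944-54281089) had fold enrichments of 5.38 (2.98 to 9.08) and 4.25 (2.36 to 7.18) with 12 reads each. The 3 summits lay 318, 576 and 880 bp from the start of CBX5 in the order of their positions along the chromosome. With no start of HNRNPA1 in use here, these distances could not be compared with those to its own start. HNRNPA2B1 is paired with another chromobox gene, CBX3, and its 2 peaks were nearer to the start of CBX3 (193 and 643 bp) than to its own (890 and 1340 bp). The peak at chr7:26201540-26201694 had a fold enrichment of 4.66 (2.86 to 7.22) with 18 reads, and the peak at chr7:26202003-26202173 had 7.05 (4.14 to 11.3) with 15 reads. HNRNPA3 (chr2:177212593-177212738) had a fold enrichment of 6.75 (3.82 to 11.2) with 13 reads, 89 bp upstream of the start. At HNRNPA0 (chr5:137754671-137754840) it was 5.94 (3.36 to 9.85) with 13 reads, 438 bp upstream.

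The other 5 hnRNP genes with a peak had fold enrichments of 7.80 or less. HNRNPK, which binds cytidine tracts, had a peak (chr9:83980584-83980757) at a fold enrichment of 7.80 (4.66 to 12.4) with 16 reads, 26 bp upstream of its start and 164 bp from that of RMI1 on the opposite strand. HNRNPUL1, a relative of HNRNPU, had a peak (chr19:41264058-41264421) at 7.63 (4.63 to 12) with 17 reads, 143 bp upstream of a start inside the gene. HNRNPD, which binds AU-rich elements and promotes mRNA decay, had a peak (chr4:82374218-82374379) at 6.13 (3.4 to 10.4) with 12 reads, 357 bp upstream and within 3 kb of the divergent transcript HNRNPD-DT. HNRNPF, a relative of the H-type proteins, had a peak (chr10:43409062-43409223) at 5.31 (2.80 to 9.35) with 10 reads, the fewest of the 29 peaks, and a −log10 q of 3.31. HNRNPLL, the paralog of HNRNPL, had a peak (chr2:38603529-38603678) at 4.42 (2.68 to 6.92) with 17 reads over a background of 3.0. Its interval overlapped that of HNRNPL from 6.41 to 6.92, with the error of both backgrounds left out.

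The hnRNP genes with no peak were HNRNPDL, HNRNPH1, HNRNPH2, HNRNPM, HNRNPR, HNRNPUL2 and the copies HNRNPA1L2, HNRNPA1L3, HNRNPCL1, HNRNPCL2, HNRNPCL3 and HNRNPCL4. The last 6 are near-identical to other genes, so that short reads from them may not be placed. Without them the count was 22 of 44 genes (50%), beside 21.4% of all 20037 protein-coding genes, copies included. All 6 had no peak, so leaving them out can only raise the share. U2AF1, which recognises the end of the intron with U2AF2, also has a near-identical copy in the reference. Of the 28 genes with no peak, copies included, 15 had their nearest peak over 100 kb away, and the median was 128 kb. No such distance is given here for all protein-coding genes with no peak. For SF3B1, which holds the branch site in the U2 snRNP, the nearest peak was 64.8 kb away. For TRA2A and TRA2B, which bind GAA-type enhancers, it was 30.2 and 160 kb away. A gene with no peak is not shown to be unbound: the lowest called summit in the library had 8 reads, and a site with fewer would not be listed. This lowest count was also that at the genome-wide background, and over a higher local background a call takes more reads. On the distance rule, the farthest peak that counted was the outer peak of HNRNPA2B1 at 1257 bp from the gene, and the nearest that did not count was 5763 bp from SRRM2, followed by U2AF2 at 7.0 kb.

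Many of these peaks also lay near another gene, and a peak there cannot be assigned to either gene from its position. Of the 29 peaks, 15 lay within 3 kb of another protein-coding gene, and 12 had no other gene of any kind within that distance. Of the 24 peaks with an own start site, 21 were nearer to it than to the start of any other protein-coding gene with a listed start site, at 18 genes. LOC124904588, a protein-coding gene within 3 kb of both HNRNPU peaks, had no listed start and could not be compared. The 3 that were not were the SRSF1 peak and both HNRNPA2B1 peaks. Such counts are not given here for all peaks at protein-coding genes. Whether neighbours were more or less common at the peaks of these genes was therefore not tested.

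In 7 lists of other splicing genes, 14 of 65 had a peak (21.5%), beside 21.4% of all protein-coding genes, and 10 of 58 (17.2%) had a summit within 1 kb of a start. Of the U2AF-related genes, 5 of 7 had a peak, with RBM39 at 14.0 (9.45 to 20) and U2SURP at 9.64 (6.0 to 14.8), the highest of these lists, followed by LUC7L2 of the U1 snRNP at 9.31 (5.87 to 14.1). In the U1 snRNP list 3 of 6 had a peak, in the tri-snRNP and helicase list 3 of 16, in the SF3 list 1 of 11 (PHF5A), in the list of the Prp19 complex 1 of 10 (CDC5L) and among the kinases of SR proteins 1 of 7 (CLK4). None of the 8 genes of the Sm proteins, the ring of most spliceosomal snRNPs, had a peak. The difference between the 50 genes and these lists was not tested.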

How the data were processed

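According to the submitters' processing notes, the authors aligned the reads with BWA 0.7.17 to hg38 and called peaks with MACS2 2.2.7, while the peak names read macs3 with SPMR. The q threshold is not given in the sources used here. The deposited list holds 6183 peaks of 1 ChIP library, with fold enrichment (a ratio), summit −log10 p, summit −log10 q, a score of −log10 q times a constant, and a signal column, deposited by the authors as fold over width and not used here. Total reads are unknown.

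ChIP reads and background were solved jointly from fold enrichment and −log10 p by the Poisson formula of MACS. The weight of 1 read (0.98) and the genome-wide background (1.04) came from 18 evenly spaced fold values in the list itself. In 945 simulated peaks, made with the same formula and weight, the reads were recovered in 100%. This checks the solving step only, not whether the formula and weight hold for the deposited list. Intervals on reads are exact Poisson at 95%, and those on the fold enrichment of a peak follow from them with the background held fixed. The interval on the median fold enrichment was instead taken from the ordered values of the peaks.

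Genes and promoter sequences were from RefSeq of GRCh38.p14, the same assembly as hg38, and 45 of the 50 symbols had a promoter entry. Length weighting used 20 equal-count bins over 20037 protein-coding genes, and CpG weighting 20 bins. A distance to a start is taken to the nearest of the starts listed for the gene. The 50 genes and all lists were chosen with earlier results of these data known. All of the 50 genes were named, and of the other lists every gene with a peak could be named and the 3 highest were given with values. The motif, distance and CpG summaries were description with no test. Of the listed spliceosome symbols, 1 was a synonym of another and was counted once. Scripts ran under Python 3.11.15 with pandas 2.3.3, numpy 2.4.6, matplotlib 3.10.9 and scipy 1.17.1.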

Additional observations from a re-analysis of the deposited data

How the results depend on the processing

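The 22 of 50 genes with a peak stayed between 15 and 25 under the alternatives, beside 16.0% to 25.1% of all protein-coding genes. It was 20 with a −log10 q of at least 5 (40% against 17.2%; HNRNPF and HNRNPLL were lost) and also 20 when fold enrichment had to reach 5 (40% against 19.7%; HNRNPLL and SRSF3 were lost). With gene bodies only it was 15 (30.0% against 16.0%), since 7 genes have peaks beside the gene alone, and with 10 kb it was 25, with SRRM2, SRRM3 and U2AF2 added. With each peak given to the nearest gene body it was 20, without SRSF1 and HNRNPA2B1. The length-weighted background moved from 18.7% to 15% with a −log10 q of at least 5 and to 17.2% at the fold limit, as fewer peaks remain. The count of 36 promoter windows with CANNTG was 11 with CAGATG or CAGCTG alone, as the motif is narrower. Other alternatives moved no count by over 1.5 times. The alternatives for starts, CpG and copy genes were chosen after seeing the data. No paired analysis was possible because the series has a single ChIP library. Its unknown depth and the 10 to 46 reads per summit limit the order of the peaks.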

Other observations

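Of 142 pseudogenes whose symbols start with SRSF or HNRNP, 3 had a NeuroD1 peak in them or within 3 kb (HNRNPA1P63, HNRNPCP9 and HNRNPKP3), beside 1.13% of all 17051 annotated pseudogenes. They were counted after the results for the genes were seen.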
